A study of Mus musculus with 4 samples.

Results

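The transcriptional response of cultured mouse hippocampal neurons to 3 h of bicuculline and 4-aminopyridine (Bic/4AP) is described here for cultures that carried an empty lentiviral vector. It rests on 2 of the 4 libraries of the series, 1 without and 1 with Bic/4AP. The cultures came from the hippocampus of CD1 mouse pups at postnatal day 0, and CD1 is an outbred strain. Both received the pLKO.1 lentivirus without a hairpin on day 4 in vitro and were collected on day 11. The first was left untreated, and the second had 50 µM bicuculline (50µm in the labels, taken to mean micromolar) with 2.5 mM 4-aminopyridine in its medium for the last 3 h. The other pair of libraries, from cultures with a lentiviral hairpin RNA against Kdm6b and the same untreated and Bic/4AP conditions, is given beside the vector pair only where named. The labels do not say whether the cultures shared a dissection or how many pups were pooled.

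Polyadenylated RNA was sequenced, and the authors' tables give FPKM, fragment counts scaled to transcript length and to the size of the library, with a lower and an upper bound for each gene. The genes were chosen by level alone: an FPKM of at least 1 in at least 1 of the 2 vector libraries. This kept 13217 of 21720 genes. Each gene is described by its FPKM in both libraries and by the difference in log2(FPKM + 1), Bic/4AP minus untreated, a scale on which a difference of 1 is called 2-fold and which understates the change of weakly expressed genes. There were no replicates, so nothing was tested and every value describes 1 culture per condition. The authors' bounds cover counting and read assignment within a library, not the variation between cultures.

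Bicuculline is an antagonist of GABA-A receptors, the main inhibitory receptors, and 4-aminopyridine closes off voltage-gated potassium channels. Given together they drive bursts of synaptic firing in cultured neurons. Calcium entering through NMDA receptors and voltage-gated calcium channels then activates kinases that phosphorylate factors already present, among them CREB and the SRF cofactors. These turn on immediate-early genes, many of which encode transcription factors, and a later set of secreted proteins, signalling inhibitors and synaptic proteins. CREB binds a short palindrome known as the cAMP response element (CRE), and NF-kB, a factor first known from immune cells, binds a longer site found near many chemokine and cytokine genes.

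The response was uneven in direction and small for most genes. Of the 13217 genes compared, 294 (2.22%) were at least 2-fold higher with Bic/4AP and 36 (0.272%) at least 2-fold lower, and 11565 (87.5%) lay within 0.5 of 0. The median difference was -0.07 and 40.3% of genes lay above 0. At 4-fold the counts were 68 higher and 1 lower, and at 8-fold 25 and 0. The 1 lower gene was Gm12238, a snoRNA gene by RefSeq type, with a locus of 124 bp and overlapping bounds. Both higher counts include 2 loci shorter than 300 bp. The genes just inside and just outside the higher threshold stood at 1.00002 and 0.9988. The authors' bounds of the 2 libraries did not overlap for 291 of the 294 higher and 34 of the 36 lower genes, nor for 2880 higher and 4884 lower genes among all compared, so non-overlapping bounds were common at small differences too. Without the 2 loci shorter than 300 bp, the higher genes took 1.01% of the summed FPKM untreated and 3.61% with Bic/4AP.

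**Figure D1:**
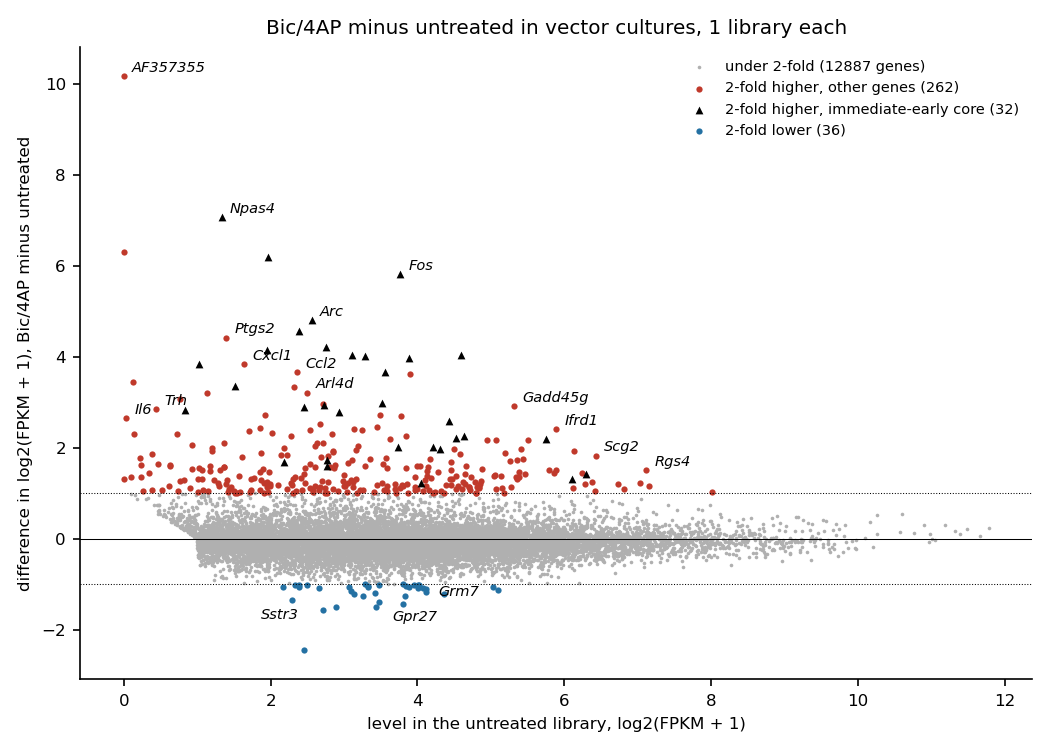
Difference in log2(FPKM + 1), Bic/4AP minus untreated, against the untreated level on the same scale, 1 point per gene for the 13217 genes compared. Red points are 2-fold higher genes outside the immediate-early core (262), black triangles the 32 of the core, and blue points the 36 lower genes. Most points lie within 0.5 of 0, and the points beyond 2-fold are mostly on the higher side.

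The labelled cell type was checked against markers. The pan-neuronal genes Tubb3 and Snap25 stood at 389 and 452 FPKM untreated, Slc17a7, the vesicular glutamate transporter of excitatory neurons, at 307, and Gad1, the GABA-synthesising enzyme, at 139. The cultures also held glial RNA, with the astrocyte filament gene Gfap at 1514 FPKM. Summed over each fixed marker list, untreated and then with Bic/4AP, FPKM was 1387 and 1497 for neurons, 662.5 and 480.8 for excitatory neurons, 1079 and 1086 for inhibitory neurons, 2440 and 2715 for astrocytes, 50.1 and 46.7 for microglia, 137 and 139 for the oligodendrocyte lineage, 70.6 and 80.5 for endothelial and mural cells, 723 and 787 for fibroblasts and meninges, and 419 and 478 for ependyma and choroid plexus. The neuron sum was higher through the neurofilament genes Nefl (258 and 530) and Nefm (98.6 and 138), whereas the other 4 of its 6 markers were lower, Tubb3 at 294 and Snap25 at 383 with Bic/4AP, and the median difference of the list was -0.23. The excitatory list had a median of -0.27, with 6 of 8 markers lower. The fibroblast and meningeal sum was nearly all Igfbp2 (701 and 766), and the next marker, Dcn, stood at 8.75 and 7.07. Most of the endothelial and mural sum was Acta2 (63.6 and 73.8). These 2 sums therefore rest on 1 gene each and do not measure the amount of those cells. The erythroid sum was 4.40 and 2.27, and the endothelial genes Cldn5, Cdh5 and Tek were under 0.1 in both. The part of cell composition in the results was not tested, and in bulk RNA fewer cells of a type and less RNA per cell cannot be told apart. As a measure of depth, upper bounds lay a median of 11.6% and 11.95% above the values in the untreated and the Bic/4AP library for genes of FPKM 1 to 5, and 4.26% and 4.44% for more abundant genes.

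Immediate-early genes were higher as a list. Of 35 measured genes of a core list, 32 were 2-fold higher. Their median was 2.83, and no member was below 0. Srf, which encodes the serum response factor itself, was the smallest member at 0.16, from 11.9 to 13.4 FPKM. Kdm6b, the target of the hairpin in the other cultures, is an H3K27 demethylase gene and stood at 6.74 untreated and 13.1 with Bic/4AP. The remaining 262 higher genes lay outside the core, and 154 of the 294 belonged to none of the gene lists used.

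Promoter stretches of 6 higher genes are shown because they hold a motif near the start. They were chosen after their values were seen. They are from RefSeq on build GRCm38.p6, run 5′ to 3′ on the gene's strand, and cover 120 bases before the annotated start and 30 bases from it. Capitals mark a CRE (TGACGTCA) or a TATA box (TATAAA) in the first 4 and an NF-kB site in the last pair. Tinf2 encodes a shelterin protein of telomeres, Errfi1 an inhibitor of the EGF receptor, Scg2 the granule protein secretogranin II, and Dio2 the deiodinase that makes active thyroid hormone. Cxcl1 encodes a chemokine and Il6 the cytokine interleukin 6.
Tinf2: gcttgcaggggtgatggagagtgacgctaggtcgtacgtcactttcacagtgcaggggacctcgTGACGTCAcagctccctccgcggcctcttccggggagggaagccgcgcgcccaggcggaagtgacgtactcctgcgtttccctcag
Errfi1: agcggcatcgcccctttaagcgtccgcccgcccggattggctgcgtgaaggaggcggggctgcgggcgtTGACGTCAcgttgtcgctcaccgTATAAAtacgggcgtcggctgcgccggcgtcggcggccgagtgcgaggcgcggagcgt
Scg2: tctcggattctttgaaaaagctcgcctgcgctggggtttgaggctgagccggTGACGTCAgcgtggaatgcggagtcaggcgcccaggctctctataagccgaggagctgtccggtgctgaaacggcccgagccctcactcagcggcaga
Dio2: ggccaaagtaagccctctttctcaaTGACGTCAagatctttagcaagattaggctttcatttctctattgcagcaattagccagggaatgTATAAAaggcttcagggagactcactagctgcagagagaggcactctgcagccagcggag
Cxcl1: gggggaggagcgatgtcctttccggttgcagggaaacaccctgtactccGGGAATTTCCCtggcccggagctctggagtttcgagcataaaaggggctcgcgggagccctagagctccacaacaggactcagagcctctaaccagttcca
Il6: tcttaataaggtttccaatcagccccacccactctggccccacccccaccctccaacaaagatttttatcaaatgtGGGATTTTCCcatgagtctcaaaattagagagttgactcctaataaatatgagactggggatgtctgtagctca

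The stretches are chr14:55681788-55681937 (Tinf2, minus strand), chr4:150854950-150855099 (Errfi1, plus), chr1:79439997-79440146 (Scg2, minus), chr12:90739009-90739158 (Dio2, minus), chr5:90891125-90891274 (Cxcl1, plus) and chr5:30012994-30013143 (Il6, plus). The first base of the CRE lies 56 bases before the start in Tinf2, 51 in Errfi1, 68 in Scg2 and 95 in Dio2. The TATA box begins 28 bases before the start in Errfi1 and 30 in Dio2. In Cxcl1 the NF-kB motif matched on both strands at overlapping positions 71 and 70 bases before the start, and in Il6 at 44. Over all 32851 promoter windows of 300 bases in the table, searched on both strands, 1.79% held the CRE, 8.46% the NF-kB motif, 7.81% the AP-1 word TGANTCA and 1.63% an SRF site (CArG box). The TATA word, searched on the sense strand from 20 to 40 bases before the start, was in 1.99%. Windows were found for only 74.8% of the 2-fold higher genes outside the core and 55.6% of the lower genes, so no share is given for them. A match describes letters and is not evidence of binding.

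All 6 genes were higher with Bic/4AP. Tinf2 stood at 10.2 FPKM untreated (the authors' bounds were 9.44 and 10.9) and 72.4 (70.4 to 74.5) with the drugs, a ratio of 7.11. Errfi1 stood at 12.6 (12.02 to 13.3) and 87.8 (86.1 to 89.4), a ratio of 6.95. Dio2 stood at 3.43 (3.199 to 3.65) and 14.8 (14.3 to 15.3). These 3 genes differ in function. They were picked as higher genes that hold the CRE word, so that they share both is not a result. Scg2, at 84.9 (83.2 to 86.7) and 304 (301 to 308), was among the most abundant of the higher genes. Cxcl1 stood at 2.12 (1.63 to 2.61) and 44.1 (41.7 to 46.4), a ratio of 20.8. Il6 was almost absent untreated, at 0.0238 (0 to 0.0714), and stood at 5.47 (4.72 to 6.21) with Bic/4AP. None of the 6 pairs of bounds overlapped. Other 2-fold higher genes with a CRE in their window included Arl4d, Arl5b, Rcan1, Pcsk1 and Zdbf2. The windows of Npas4, Fos, Nr4a1, Ptgs2 and Egr4, with larger differences, did not hold the word. Only the exact word within the window was searched, so variant, partial or more distant sites would not have been found.

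Among genes with a locus of at least 300 bp, the 3 largest differences outside the core were those of Ptgs2, Cxcl1 and Ccl2, genes of secreted inflammatory signals. Chemokines recruit immune cells through G protein-coupled receptors, and Ptgs2 encodes the inducible enzyme of prostaglandin synthesis. Ptgs2 (chromosome 1, 151947254 to 151955142, mm9) stood at 1.63 FPKM (1.44 to 1.81) untreated and 55.5 (54.4 to 56.6) with Bic/4AP, a ratio of 34.1. Ccl2, a monocyte chemokine, stood at 4.12 (3.36 to 4.88) and 63.9 (60.8 to 66.97), and its neighbour Ccl7 at 1.20 and 19.5. Cxcl10, an interferon-inducible chemokine, stood at 3.99 and 49.3, and Cxcl2, which acts on neutrophils, at 0.0957 and 11.0. All of these were under 5 FPKM untreated and among the clearly expressed genes with Bic/4AP. Of 24 genes compared in a chemokine and cytokine list that also holds Ptgs2, 20 lay above 0 and 10 were 2-fold higher. The list median was 0.60, and it does not describe chemokines and cytokines alone. All 10 compared genes of the symbol stem Ccl had a median of 0.21, with 7 above 0 and 3 2-fold higher. Not every member of the list was higher: Cxcl12 stood at -0.24 and Cx3cl1, the fractalkine gene of neurons, at -0.17. Microglia markers, whose cells are a known source of chemokines, had a median of -0.08, and the part of other cells in these values was not tested.

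Genes of the NF-kB pathway lay mostly above 0 with them. NF-kB subunits are held in the cytoplasm by inhibitors that are themselves target genes. Of 20 members compared, 15 lay above 0 and 4 were 2-fold higher, with a median of 0.49. The subunit genes Nfkb1 and Nfkb2 stood at 7.52 and 5.11 FPKM untreated and at 19.97 and 12.6 with Bic/4AP. The gene of such an inhibitor, Nfkbia (0.68), was higher too, as were the pathway genes Nfkbiz (1.84) and Tnfaip3 (1.02). The adaptor gene Traf1 stood at -0.36. Genes downstream of cytokine receptors varied, with Socs3 at 1.27 and Socs2 at -0.35.

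Growth factor genes were divided. Of 38 compared, 22 lay above 0 and 9 were 2-fold higher, with a median of 0.07, so the direction of the list is not given. Bdnf, the neurotrophin best known for dependence on firing, stood at 17.1 FPKM (16.2 to 17.98) and 60.4 (58.8 to 62.05). Hbegf, a ligand of the EGF receptor, stood at 54.3 and 157, and Areg, another such ligand, at 0.380 and 3.33. Lif and Clcf1, cytokines of the interleukin 6 family, had differences of 1.497 and 1.63, and Bmp2 1.48. On the other side stood Fgf18 (-0.63), Pdgfb (-0.61) and the neurotrophin gene Ntf3 (-0.49), so that Bdnf and Ntf3 lay on opposite sides of 0.

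Neuropeptide and secretory granule genes also included large differences. Granules hold peptides with the enzymes that cut them from precursors, and are released on strong firing. Of 29 compared, 18 lay above 0 and 8 were 2-fold higher, with a median of 0.15. Trh, the thyrotropin-releasing hormone gene, stood at 0.357 FPKM (0.198 to 0.517) and 8.87 (8.05 to 9.699), and the proenkephalin gene Penk at 2.63 (2.2005 to 3.06) and 18.7 (17.5 to 19.9). Adcyap1, which encodes the peptide PACAP, stood at 5.89 and 23.2, and Tac1, the substance P precursor, at 27.7 and 62.2. The 2 convertases of granules parted: Pcsk1 stood at 1.24 and Pcsk2 at -0.71. So did the pentraxins, with Nptx2 at 1.32 and Nptx1 at -0.78, proteins that cluster AMPA receptors outside the cell.

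Matrix and protease genes were higher as a list. Of 33 compared, 23 lay above 0 and 5 were 2-fold higher, with a median of 0.27. Serpinb2, an inhibitor of plasminogen activators, stood at 0.106 FPKM untreated and at 4.47 with Bic/4AP. Adamts4 and Adamts1, proteases that cut the proteoglycans of the matrix, had differences of 2.30 and 1.57, and Timp1, a metalloprotease inhibitor, 1.47. Tnr, the tenascin of perineuronal nets, stood at -0.41.

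Inhibitors of intracellular signalling made up a further group. Dual-specificity phosphatases remove phosphate from MAP kinases, and Sprouty proteins block the path from receptors to them. Of 16 compared in a list that also holds Errfi1 (2.70), 11 lay above 0 and 7 were 2-fold higher, with a median of 0.51. All 19 compared genes of the symbol stem Dusp had a median of -0.02, with 9 above 0 and 6 2-fold higher. Dusp6, which acts on ERK, stood at 13.4 FPKM untreated and 67.8 with Bic/4AP, Dusp4 at 11.4 and 56.2, and Dusp5 at 5.57 and 27.5. Spry2 stood at 1.37. Dusp7, another ERK phosphatase, stood at -0.94, from 9.82 to 4.64 FPKM, so members with a shared substrate lay on both sides of 0.

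Regulators of G proteins and small GTPases had 9 of 30 members 2-fold higher and a median of 0.14, with 18 above 0. The ARF-like GTPase gene Arl4d stood at 4.66 FPKM (4.08 to 5.24) and 51.6 (49.6 to 53.6), a ratio of 11.1. Its relative Arl5b stood at 5.395 and 35.95. RGS proteins speed the shut-off of G proteins: Rgs4 stood at 138 and 394, Rgs2 at 35.5 and 135, and Rgs16 at 4.81 and 17.1. Rgs11 (-0.53), Rgs7 (-0.46) and Rgs17 (-0.46) were lower. Rrad, a small GTPase that restrains calcium channels, stood at 0.552 and 3.74. Among kinases, 2 of 29 were 2-fold higher, Pim1 (2.78 and 24.1 FPKM) and Stk40 (1.22), while Camkk1, a kinase of the calmodulin pathway, stood at -0.74.

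**Figure D2:**
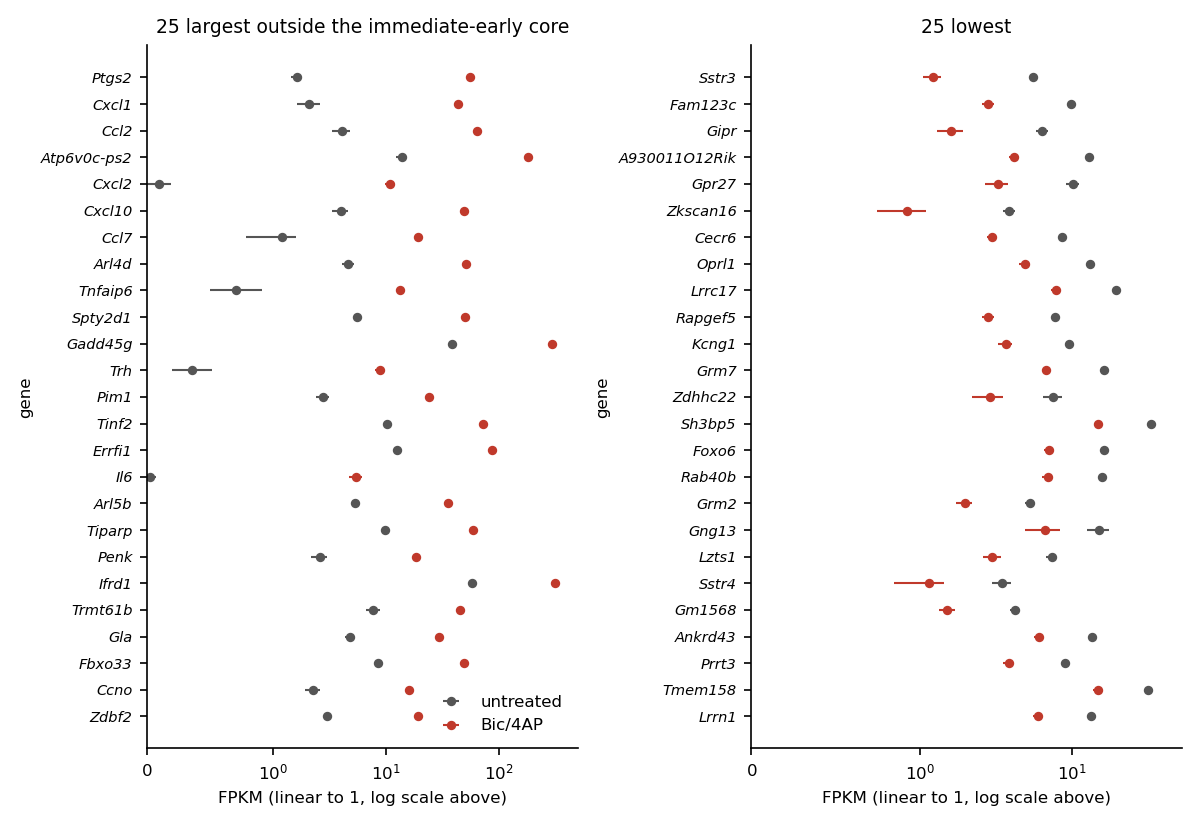
FPKM in the untreated (grey) and the Bic/4AP (red) vector library, with the authors' bounds as bars, for the 25 largest differences outside the immediate-early core (left) and the 25 lowest (right), among genes with a locus of at least 300 bp and bounds that do not overlap. The axis is linear up to 1 FPKM and logarithmic above. Ptgs2 lies at 1.63 and 55.5, and Sstr3 at 5.58 and 1.21.

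Transcription factors beyond the core were mixed. Of 25 other bZIP genes, 18 lay above 0 and 1, Mafk (1.26), was 2-fold higher, with a median of 0.21. Creb1 itself stood at -0.33. A list of Ets factors and SRF cofactors also holds Myc (1.92) and Mycl1 (-0.93), which are of neither kind. Its Ets genes Ets1 (1.603) and Elf1 (just over the threshold) were 2-fold higher, and the cofactor genes Mkl1 (-0.51) and Mkl2 (-0.66) were lower. The list median was 0.20, and it does not describe Ets factors and SRF cofactors alone. Of the remaining Kruppel-like factors, Klf6 stood at 1.51 and Klf5 at 1.35, but the median was -0.17 and 4 of 12 lay above 0. Sox11 (1.10) and Sox4 (0.99), factors of young neurons, stood apart from the cortical identity genes Bcl11b (-0.74), Emx1 (-0.70) and Neurod2 (-0.61) in a list with a median of -0.17. Among clock genes Rorb stood at 1.29 and Npas2 at -0.99.

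A chosen list of protein turnover genes was higher, but larger groups of such genes were not. Of its 28 ubiquitin ligase and deubiquitinase genes, 20 lay above 0 and 8 were 2-fold higher, with a median of 0.53. Grouped by symbol stem alone, the median was -0.05 for Rnf (67 genes), -0.09 for Usp (46) and -0.12 for Fbxo (28). It was -0.13 for Fbxl (17), -0.04 for Ube (38) and -0.03 for Trim (36), beside -0.07 for all genes. The list median therefore does not describe the class. Fbxo33, a substrate-binding subunit of SCF ligases, stood at 8.52 FPKM and 49.2, and Siah2, a RING ligase, at 7.34 and 25.4. Nedd4l stood at -0.54. Chaperone genes followed: 28 of 30 lay above 0 and 7 were 2-fold higher, with a median of 0.27. The heat-shock genes Hspa1a and Hspa1b stood at 6.16 and 7.94 untreated and 34.6 and 33.9 with Bic/4AP, and since they are near-identical neighbours on chromosome 17 their reads may be shared. The co-chaperone genes Dnajb1 (22.8 and 86.2 FPKM) and Bag3 (14.9 and 47.2) were higher as well, while Hsp90ab1, an abundant constitutive chaperone, stood at -0.02.

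Stress-responsive lists had fewer 2-fold members. Oxidative stress genes had 3 of 22, namely Srxn1 (69.4 FPKM untreated and 268 with Bic/4AP), Hmox1 (130 and 306) and Txnrd1 (105 and 243), and a median of 0.16. Srxn1 encodes sulfiredoxin, which repairs peroxiredoxins, and is known as an NRF2 and AP-1 target. Of 25 genes of the ATF4 and amino acid response, 2 were 2-fold higher, Ppp1r15a (1.97) and Ddit3 (1.20), with a median of 0.03. Targets of p53 had a median of 0.53 with 16 of 20 above 0, led by Plk2 (1.33), Eda2r (1.20) and Pmaip1 (1.17), and Plk2 also belongs to the core list. The hypoxia list had no 2-fold member among 18 and a median of 0.04. Anti-apoptotic genes had 2 of 12 2-fold higher, Bag3 and Mcl1, the latter at 84.4 and 176 FPKM, and pro-apoptotic genes 1 of 21, Pmaip1.

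Lists of genes that act on DNA, RNA and chromatin had medians near 0, but single members lay further away. Gadd45g and Gadd45a, linked to DNA repair and demethylation, stood at 38.7 and 5.45 FPKM untreated and 299 and 21.4 with Bic/4AP, whereas Tet1 stood at -0.54 and Tdg at -0.61. No member of the deacetylase and acetyltransferase list (24 genes, median -0.12), the Polycomb and H3K27 demethylase list (19 genes, median 0.14) or the ribosome biogenesis list (24 genes, median 0.03) was 2-fold apart. The Polycomb and H3K27 demethylase list ranged from -0.49 to 0.87, with 12 members above 0 and 7 not. Its largest differences were those of Kdm6b (0.87), Ezh2 (0.83) and Jarid2 (0.78). Of 28 splicing genes 1 was 2-fold higher, Ptbp1 (40.1 and 101 FPKM), a repressor of neuronal exons, while the neuronal splicing gene Rbfox3 stood at -0.56. Btg1, a partner of deadenylases, stood at 10.6 and 35.005 FPKM. Replication genes included Pcna, the polymerase clamp, at 42.3 and 146 FPKM, but Cdk1 stood at 0.07. Snhg1, a noncoding host of snoRNAs, stood at 31.9 and 85.03, and Neat1 and Meg3, other long noncoding RNAs, at -0.58 and -0.35.

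Energy metabolism was nearly level. The 31 genes of the oxidative phosphorylation list had a median of -0.06, a sign that differed under another scaling. They ranged from -0.46 to 0.11 (Cycs), and the lowest was Esrra, a nuclear receptor gene and not one of the respiratory chain. Of 28 glycolysis and glucose transport genes, 7 lay above 0, with a median of -0.18. Hk2, the inducible hexokinase, stood at 2.93 FPKM and 9.94, and the glucose transporter genes Slc2a3 and Slc2a1 at 0.82 and 0.72, whereas Hk1 stood at -0.37 and the neuronal enolase gene Eno2 at -0.49. Sterol synthesis genes also parted, with Sc4mol at 0.74 and Dhcr7 at -0.85 in a list of 27 with a median of -0.17.

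**Figure D3:**
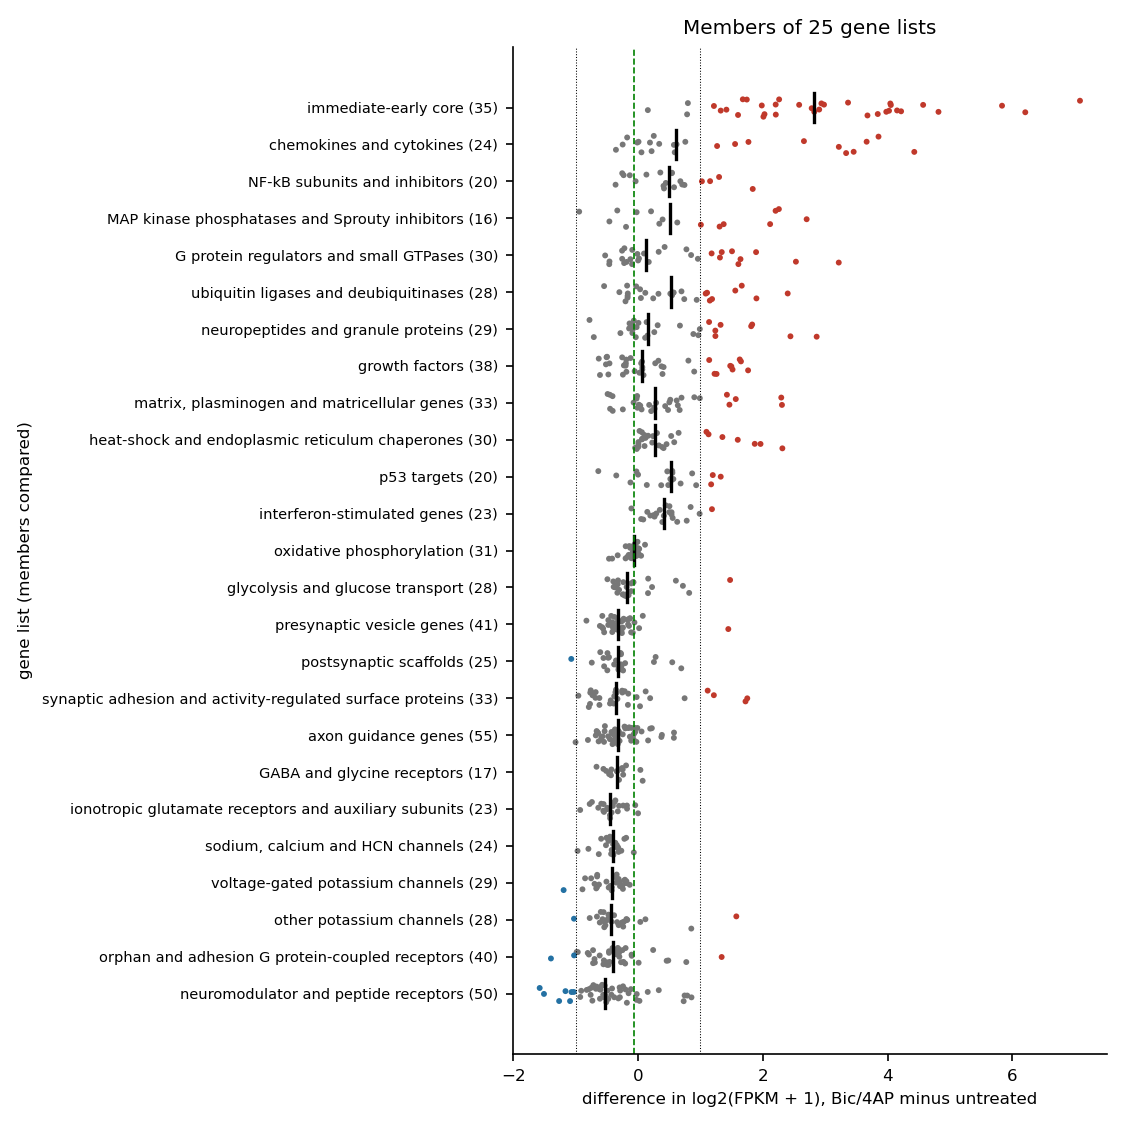
Difference in log2(FPKM + 1), Bic/4AP minus untreated, for the members of 25 gene lists, 1 point per gene, with the number compared in parentheses. Black bars are list medians, the dashed line is the median of all genes (-0.07) and dotted lines mark 2-fold. Channel and receptor lists lie left of the dashed line with few points beyond 2-fold, and the signalling lists at the top have long tails to the right.

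Membrane receptors and channels lay on the lower side by small amounts. Neuromodulator and peptide receptors carry slow signals through G proteins. Of 69 such genes 50 were compared, of which 7 lay above 0, 7 were 2-fold lower and 0 2-fold higher, with a median of -0.52. Sstr3, a somatostatin receptor gene on chromosome 15 (78367445 to 78374775), stood at 5.58 FPKM (5.23 to 5.94) untreated and 1.21 (1.04 to 1.38) with Bic/4AP, which is 21.7% of the untreated level. Oprl1, the nociceptin receptor gene on chromosome 2 (181449749 to 181455677), stood at 13.2 (12.5 to 13.8) and 4.91 (4.51 to 5.31). The presynaptic glutamate receptor gene Grm7 on chromosome 6 (110595592 to 111517224) stood at 16.3 (15.7 to 16.9) and 6.73 (6.34 to 7.13). These 3 receptors couple to inhibitory G proteins, as does Grm2, which stood at -1.09. The muscarinic receptor gene Chrm1, which couples to Gq, stood at 15.2 and 6.93. On the other side were Adra1a (0.86), Tacr1 (0.79) and Sstr1 (0.73), so that somatostatin receptor genes lay on both sides of 0.

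Orphan and adhesion receptors had a median of -0.40, with 6 of 40 above 0 and 2 2-fold lower. Gpr27 stood at 10.2 FPKM (9.22 to 11.1) and 3.25 (2.69 to 3.81). Gpr3, which signals through Gs without a known ligand, was 2-fold higher, at 2.41 and 7.63.

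Ion channels followed the same side. None of the 29 voltage-gated potassium channel genes lay above 0, and their median was -0.42. Kcng1, a silent subunit, was 2-fold lower, at 9.67 FPKM (9.05 to 10.3) and 3.67 (3.28 to 4.07), and Kcnv1 and Kcna2 stood at -0.89 and -0.85. Some members of that family are targets of 4-aminopyridine itself. The 24 sodium, calcium and HCN channel genes had a median of -0.40 and 0 above 0, from Scn3a, an embryonic sodium channel gene, at -0.97 to Cacna1d at -0.07. Among 28 other potassium channel genes, with a median of -0.43, Kcnj2, an inward rectifier, stood at 1.57 and 6.67 FPKM, and Kcnj11, the pore of the ATP-sensitive channel, at 4.66 and 1.78.

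Fast transmitter receptors lay below 0 without a 2-fold member. Of 23 ionotropic glutamate receptor and auxiliary genes 1 lay above 0, with a median of -0.45, from Grik3 at -0.93 to the AMPA receptor gene Gria3 at 33.5 FPKM in both libraries. Of 17 GABA and glycine receptor genes, which include the target of bicuculline, 2 lay above 0, with a median of -0.33, and Gabrb2 stood at -0.66 and Gabrb1 at 0.04. Axon guidance genes, 55 in all, had a median of -0.32, 8 above 0 and no 2-fold member, with Sema4a at -0.999 just short of one.

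Synaptic structure showed the same small shift with exceptions. Presynaptic vesicle genes had a median of -0.32 and 3 of 41 above 0. The exception was Syt4, a synaptotagmin of dense-core vesicles, at 57.3 FPKM and 158. Postsynaptic scaffold genes had a median of -0.31, with Lzts1 2-fold lower (-1.07) and Sipa1l2 (0.69) and Baiap2 (0.55) above 0. Of 33 synaptic adhesion and activity-regulated surface genes, 8 lay above 0 and 4 were 2-fold higher: Flrt3 (9.25 and 33.5 FPKM), Pcdh8 (39.98 and 134), Nrn1 (76.4 and 179) and Lrrtm1 (34.6 and 76.3). Pcdh8 encodes arcadlin, a cadherin that promotes removal of other cadherins from spines, and Lrrtm1 a postsynaptic partner of neurexins. Their list median was -0.35, and Lrrtm1 is set beside Slitrk5 (-0.79), Slitrk1 (-0.77) and Nlgn3 (-0.76). Excitatory neuron markers moved with these lists: their median was -0.27, Slc17a7 stood at 307 FPKM (304 to 310) and 206 (204 to 209), and Camk2a at 220 and 166, while the inhibitory markers had a median of -0.02. The part of cell composition in these lists was not tested.

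Interferon-stimulated genes were slightly higher. Of 23 compared, 22 lay above 0 and 1 was 2-fold higher, Gbp2, with a median of 0.42. The viperin gene Rsad2 stood at 2.01 FPKM (1.797 to 2.23) and 4.41 (4.08 to 4.74), and Ifit1, a sensor of viral RNA, at 4.49 (4.09 to 4.88) and 8.43 (7.87 to 8.99). In the hairpin cultures the same 23 genes had a median of -0.29, with Rsad2 at 9.004 and 8.55 and Ifit1 at 14.1 and 11.0.

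Many higher genes outside every list were well expressed. The gene Ifrd1, an interferon-related developmental regulator, stood at 58.2 FPKM untreated and 315 with Bic/4AP, and Emp1, an epithelial membrane protein gene, at 44.3 and 203. Ptx3, a long pentraxin of innate immunity, stood at 29.8 and 137, and Emd, which encodes emerin of the inner nuclear membrane, at 41.4 and 166. These 4 reached levels above those of most chemokine genes. Less abundant were Spty2d1, a histone chaperone gene (5.56 and 50.5), Tiparp, a mono-ADP-ribosyltransferase gene and aryl hydrocarbon receptor target (9.91 and 59.2), Gla, the lysosomal alpha-galactosidase gene (4.79 and 29.6), and the imprinted gene Peg10 (5.08 and 24.1). Nfatc2, a calcineurin-dependent transcription factor gene, stood at 5.39 and 13.1, and F3, the tissue factor gene that starts clotting, at 35.1 and 71.3. By RefSeq type, 279 of 12719 protein-coding genes were 2-fold higher and 33 lower, against 8 and 2 of 273 long noncoding RNA genes.

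Of the 36 lower genes, 24 were in no list. Sh3bp5, an adaptor of the JNK pathway, stood at 33.3 FPKM untreated and 14.8 with Bic/4AP, and Tmem158 at 31.8 and 14.8. Foxo6, a forkhead factor gene of the hippocampus, stood at 16.4 and 7.12, Ndp, the Norrie disease gene and a ligand of Frizzled receptors, at 15.1 and 6.91, and Gng13, a G protein gamma subunit gene, at 15.1 and 6.65. Rapgef5, an exchange factor for Rap, had a difference of -1.21 and Fam123c one of -1.51. No lower gene exceeded 50 FPKM untreated, and Nptxr, the neuronal pentraxin receptor gene, was just short of 2-fold at 72.5 and 36.3.

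A few genes were near absent in 1 of the 2 libraries. An FPKM below 1 untreated and of at least 2 with Bic/4AP was found for 33 genes, and the reverse for 12. In the hairpin cultures 19 of the 33 and 1 of the 12 met the same limits. Besides Cxcl2, Il6, Trh and Serpinb2, the 33 held Tnfaip6, a hyaluronan-binding protein gene (0.707 and 13.3), the AP-1 gene Fosl1 (0.787 and 11.7), Il11 (0.170 and 2.99) and Esm1 (0.310 and 3.79). The 12 held the zinc-finger gene Zkscan16 (3.89 and 0.923) and the receptor genes Gpr52 (2.10 and 0.588) and Vipr1. Of the 33, AF357355, a snoRNA gene of 54 bp, and LOC100302567, of 94 bp, were listed at 0 untreated and at 1169 and 77.9 with Bic/4AP, and AF357355 was listed at 0 in both hairpin libraries. FPKM of so short a locus is unstable, and no fold is given for them.

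Several other large values need a limit. Atp6v0c-ps2, a pseudogene, stood at 13.9 FPKM and 182 in the vector libraries and 83.5 and 156 in the hairpin libraries, while its parent Atp6v0c stood at 846 and 646. Reads of the pair may be shared, as may those of Gm10094 and Sap18, of Gm13363 and Ptp4a1, and of Ifi202b and Ifi205. Gm12238, a snoRNA gene of 124 bp, was listed at 0 with Bic/4AP.

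Genes of shared symbol stems were compared without choosing them by hand, over all 133 stems with at least 10 compared genes. The histone genes (stem Hist, 27 genes) had the highest median at 0.42, with 27 of 27 above 0 and 2 2-fold higher. Most histone messages lack a poly(A) tail and the library was selected for one, and their near-identical copies may share reads. The 12 Hspa genes followed at 0.32. At the other end were Prr (10 genes, median -0.43), Syt (15, -0.33), Gpr (46, -0.32), Camk (10, -0.28), Cdh (14, -0.27) and Arhgef (17, -0.26). The largest stem, Zfp, had 319 zinc-finger genes with a median of -0.22, of which 68 lay above 0, 2 were 2-fold higher and 1 2-fold lower.

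Locus length was not used to choose the genes, and the share of 2-fold higher genes differed with it. It was 4.43% at 0.3 to 3 kb (39 of 881), 3.77% at 3 to 10 kb (101 of 2682), 2.21% at 10 to 30 kb (93 of 4206), 1.12% at 30 to 100 kb (40 of 3580), 1.26% at 100 to 300 kb (18 of 1430) and 0.230% at 300 kb and above (1 of 434). Without the immediate-early core the first of these was 3.56% and the second 3.23%. The 1 gene above 300 kb was Pde4b, a phosphodiesterase of cAMP, at 16.3 FPKM and 37.6. Genes of that class had a median of -0.21 and 23.0% lay above 0, among them the long neuronal genes Dcc (-0.68) and Kalrn (-0.74) below 0. Lower 2-fold genes were not confined to long loci, with 14 at 3 to 10 kb, and their median length was 8.36 kb against 11.0 kb for the higher and 22.7 kb for all genes compared. By level the order depended on the definition: the 2-fold higher share was 0.688% at an untreated FPKM of at least 100 and 3.32% at a mean FPKM of at least 100, since the mean holds the response.

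**Figure D4:**
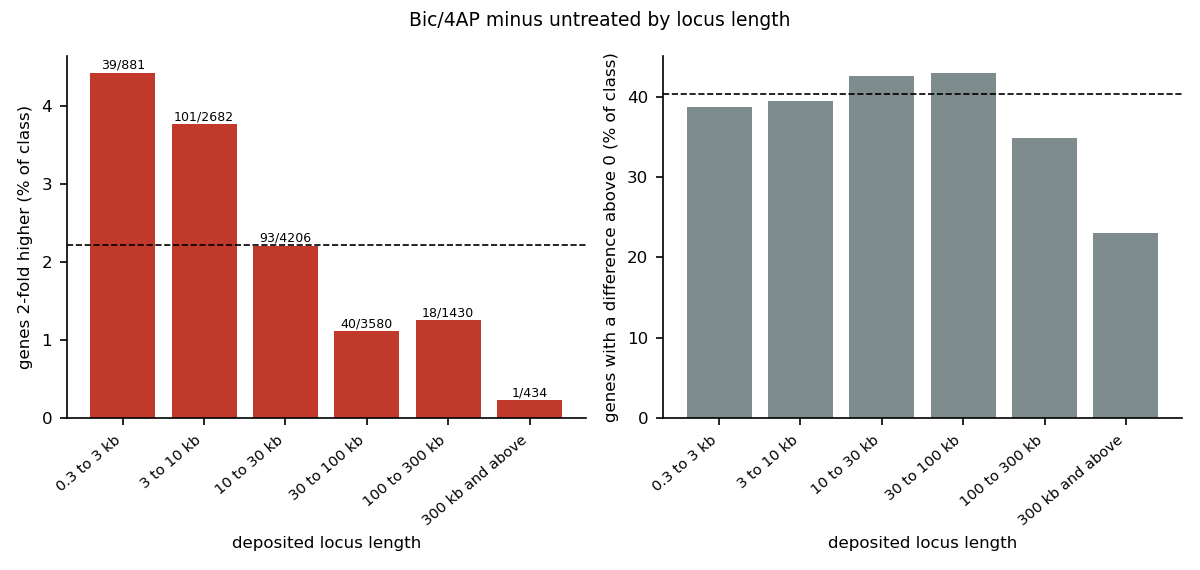
Genes by length of the deposited locus: the share that was 2-fold higher with Bic/4AP (left, counts above the bars) and the share with a difference above 0 (right). Dashed lines are the shares over all genes, 2.22% and 40.3%. The left bars are lower for long loci, from 4.43% to 0.230%, and the right bar is lowest at 300 kb and above.

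Some higher genes were neighbours on a chromosome. Of 292 higher genes with a locus of at least 300 bp, 30 formed 15 pairs within 100 kb. Of the 808 compared genes within 100 kb of another higher gene, 3.71% were 2-fold higher, beside 2.21% of all 13213 compared genes of that length, so nothing is read from the number of pairs. On chromosome 5 (mm9) Cxcl1 and Cxcl2 lay in 91320271 to 91334964, and Cxcl10 and Cxcl11 in 92775667 to 92792322. On chromosome 11 Ccl2 and Ccl7 lay in 81849079 to 81861025. Other pairs had unrelated products, such as Sap30 and Hmgb2, and Arf4 and Pde12. Chemokine and heat-shock pairs are gene duplicates, so their members are not independent.

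The hairpin cultures, which share no library with the vector cultures, gave the same genes a second set of values. There 277 of 13320 genes compared (2.08%) were 2-fold higher and 21 (0.158%) 2-fold lower. Of the 294 genes higher in vector cultures, 221 stood at 1 or more in the hairpin cultures, 68 between 0.5 and 1, 3 between 0 and 0.5, and 2 below 0. Their median was 1.39 in vector and 1.38 in hairpin cultures. Of the 36 lower genes, 13 stood at -1 or below, 16 between -1 and -0.5, 4 between -0.5 and 0, and 3 at 0 or above. Since the genes were picked for large vector differences, smaller hairpin values are partly fixed by that choice. Larger there were Serpinb2 (2.31 and 4.32), Pcsk1 (1.24 and 2.66) and Penk (2.44 and 3.81), and smaller were Rcan1, a calcineurin inhibitor gene (1.72 and 0.99), Ccno (2.38 and 1.24) and Gipr (-1.51 and -0.40). Channel and receptor lists had medians below 0 in both pairs, smaller in size in the hairpin cultures. There the median was -0.22 for voltage-gated potassium channels, -0.15 for other potassium channels and -0.26 for sodium, calcium and HCN channels. It was -0.20 for ionotropic glutamate receptors, -0.22 for GABA and glycine receptors, -0.33 for neuromodulator receptors and -0.24 for orphan receptors. Whether the responses differ for these genes and lists could not be tested with 1 library per group.

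**Figure D5:**
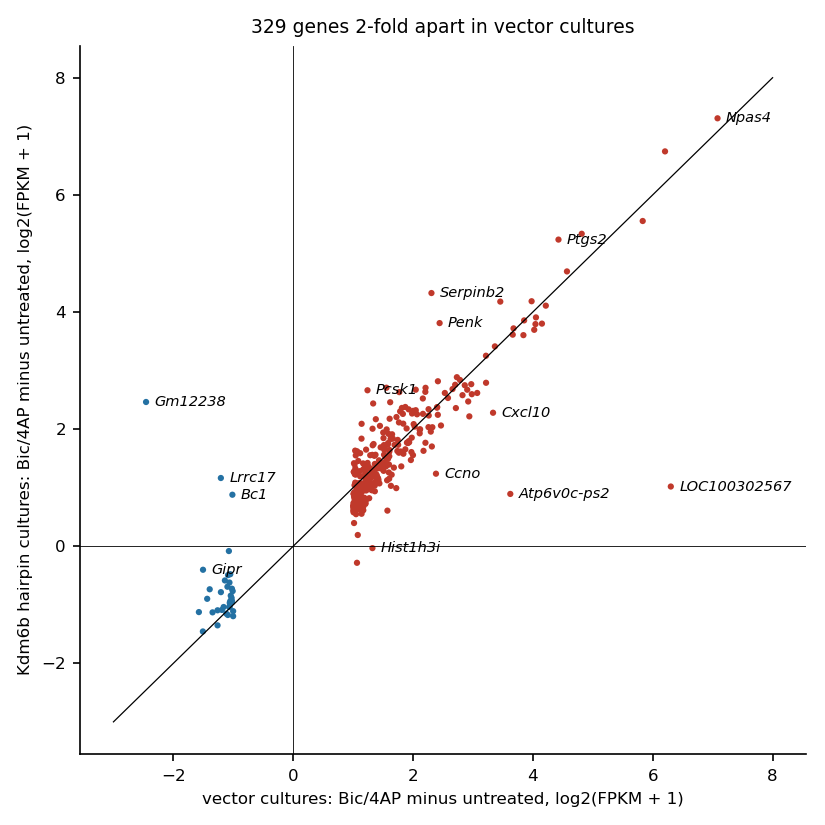
Difference in log2(FPKM + 1), Bic/4AP minus untreated, in Kdm6b hairpin cultures against that in vector cultures, for 329 of the genes 2-fold apart in vector cultures (AF357355, at 10.19 and 0.00, is off the scale). Red points were higher and blue points lower in vector cultures, and the diagonal marks equal values. Lrrc17, Bc1 and Gm12238 lie in the quadrant of opposite sign.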

How the data were processed

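Polyadenylated RNA libraries were made with the Illumina TruSeq kit, per the labels' protocols, 1 library per group. The deposited tables hold FPKM computed by the authors for 22878 rows of 22492 symbols, with bounds. Cufflinks 2.0.2, TopHat2 2.0.8b, CASAVA 1.8 and build mm9 are named, per the submitters' processing notes; their roles and the annotation are not given in the sources used here. No read counts entered these analyses, and depth is known only through the authors' bounds.

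Rows of a symbol were summed, 42 symbols with a failed row in any library and 730 small RNA symbols were left out, and FPKM were not rescaled. Small RNA genes were recognised by the form of their symbol only, so the snoRNA genes AF357355 and Gm12238 were kept. Differences were taken in log2(FPKM + 1) where a gene reached FPKM 1 in either vector library. A list is called higher or lower only where its median was at least 0.2 from 0 and kept its sign under every scaling. There was no test. Genes were named by rule: the top 25 and bottom 25 differences (locus of at least 300 bp, bounds apart), the top 4 and bottom 3 members per list, neighbouring pairs, and Kdm6b. Further names were picked with their values in view. The comparison and the gene lists were chosen with earlier results of these data known. Symbols were matched to RefSeq for 99.3% of compared genes. Alternatives changed the pseudocount, filter, scaling, small RNA rule, row rule, short loci and use of bounds. The computation of differences was checked on simulated libraries with known changes. Analyses used Python 3.11.15, pandas 2.3.3, numpy 2.4.6 and matplotlib 3.10.9. Some members of the gene lists are counted but not reported here by name.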

Additional observations from a re-analysis of the deposited data

Results flagged for a closer look

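Some results lay on opposite sides of 0 in vector and hairpin cultures, a difference that was not tested since each group has 1 library. The histone gene Hist1h3i had a difference of 1.32 in vector cultures and -0.03 in hairpin cultures, and 4930562F07Rik of 1.06 and -0.28. The reverse held for Bc1, a small cytoplasmic RNA summed from 2 rows (-1.01 and 0.88), and for Lrrc17 (-1.21 and 1.16). It also held for Gm12238 (-2.46 and 2.46), a snoRNA gene of 124 bp listed at 0 with Bic/4AP in vector cultures. The median of the interferon-stimulated genes was 0.42 in vector and -0.29 in hairpin cultures.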

How the results depend on the processing

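The count of 294 higher genes was 171 with a pseudocount of 5 and between 259 and 394 under the other alternatives. The count of 36 lower genes was 130 with a pseudocount of 0.1, 0 with a pseudocount of 5, 22 under median-ratio scaling and 92 with small RNA genes kept, and between 29 and 43 otherwise. Higher genes were 89.1% of the 2-fold genes, 75.2% with a pseudocount of 0.1, 100% with 5 and 79.8% with small RNA genes kept. Of the 33 genes near absent untreated, 9 were left when an FPKM of at least 5 was required, and 73 were found with small RNA genes kept. The 12 in the reverse direction became 0 and 56 under the same changes. A higher pseudocount shrinks differences of weakly expressed genes by construction, and the other causes were not tested. Median-ratio scaling moved the median of all genes by 0.07. Over all alternatives, 33 of the list medians' recomputed values moved and 596 did not. A list called higher or lower could not change sign under a scaling, because the rule for calling it required that. None changed sign under the other alternatives. No named 2-fold gene changed sign either, but a pseudocount cannot change the sign of a gene's difference and the scalings shifted values little. Of the lists called neither, the medians of 5 (oxidative phosphorylation, clock, Notch and Id, Wnt, inhibitory markers) changed sign under median-ratio scaling, and those of 6 (clock, Wnt, inducible kinases, anti-apoptotic genes, oligodendrocyte and fibroblast markers) with an FPKM of at least 5 required. Under scaling, 12 named genes changed sign, each within 0.06 of 0. No paired analysis was possible because the labels give no replicate numbers and each group has 1 library, which also left no replicate to leave out.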
